A study of Pyrus calleryana with 9 samples.

Results

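The DOG1 seed dormancy family was followed in callery pear (Pyrus calleryana) seeds during cold stratification. Its members were taken as all annotated genes whose description names DELAY OF GERMINATION, a Protein DOG1 or the Pfam domain Seed dormancy control, without those matched in Swissprot to a TGA factor, a bZIP protein or any other transcription factor. Of 59552 annotated genes 23 carry such a description, and 18 of these were left out as TGA-type transcription factors. The remaining 5 genes are the family. The rule would have kept the 10 genes with the highest mean FPKM (a level per gene length and per library size), so all 5 were kept and no member was dropped for its level.

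Seeds from mature fruits of 15-year-old trees were imbibed in water for 24 h, and 3 stages were sampled: imbibed seeds without cold stratification (0 d), seeds after 20 d on wet filter paper at 4 °C, and seeds after 50 d under the same conditions. The labels and the study call the first stage unstratified, but the deposited comparison columns code it as DR2, beside DR20 and DR50, so whether the 0 d seeds had 2 d of cold could not be settled. The stages share the species, the trees' age, the drying and the imbibition. Each stage has 3 RNA-seq libraries of whole seeds, called replicates A, B and C, with 13893019 to 16228340 counted reads. The labels call them biological replicates but do not say whether the seeds came from separate trees, so the p-values measure the spread between these seed lots.

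DOG1 was found in Arabidopsis as a gene that sets how deeply a seed is dormant. Its protein has no enzymatic domain and binds the group A protein phosphatases AHG1 and AHG3, which otherwise switch off the abscisic acid (ABA) response, and so keeps a seed responsive to ABA. Plants hold several DOG1-like genes beside it, and the same domain also forms a part of the TGA transcription factors, where it follows a DNA-binding bZIP region. In Arabidopsis the domain occurs too in INAPERTURATE POLLEN1, which is needed for the openings of the pollen wall.

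All 5 pear genes carry Seed dormancy control (PF14144) as their Pfam domain. Positions are those of the Pyrus betuleafolia genome used for the authors' alignment, with the start and the end of each gene as deposited. Chr11.g12902, matched to Protein DOG1-like 4, lies on the minus strand at chr11:31278487-31279813 and has an annotated length of 876 bases. Its span is 451 bases longer than that length. DOG1-like 4 is known in Arabidopsis for its part in the build-up of seed reserves. Chr15.g03683, matched to Protein DOG1-like 2, lies on the plus strand at chr15:8477285-8478142, and its span and its annotated length are both 858 bases, so it has no annotated intron. Chr6.g52661, matched to Protein INAPERTURATE POLLEN1, lies on the plus strand at chr6:8200637-8201880 and has a length of 1134 bases. The last pair is shorter. Chr3.g18147 (DOG1-like 2, minus strand) lies at chr3:27011127-27012434 with a length of 549 bases, and Chr1.g57645 (DOG1-like 4, minus strand) at chr1:9957014-9957447 with 390 bases. The 5 genes stand on 5 different chromosomes, and their annotated neighbours on either side are 2.66 to 29.8 kb away.

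The levels of the members spanned a wide range. Chr11.g12902 had the highest mean over all libraries, 181.8 FPKM, which is above the mean of 98.7% of all annotated genes. Chr15.g03683 followed with 36.6 FPKM and Chr6.g52661 with 20.2 FPKM. Chr3.g18147 averaged 1.30 FPKM and Chr1.g57645 0.711 FPKM. The members were chosen by their annotation and by these means, which are given as a description. In each of the 9 libraries Chr11.g12902 was the highest, and it held 69.4 to 85.5% of the summed FPKM of the 5 genes.

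**Figure D1:**
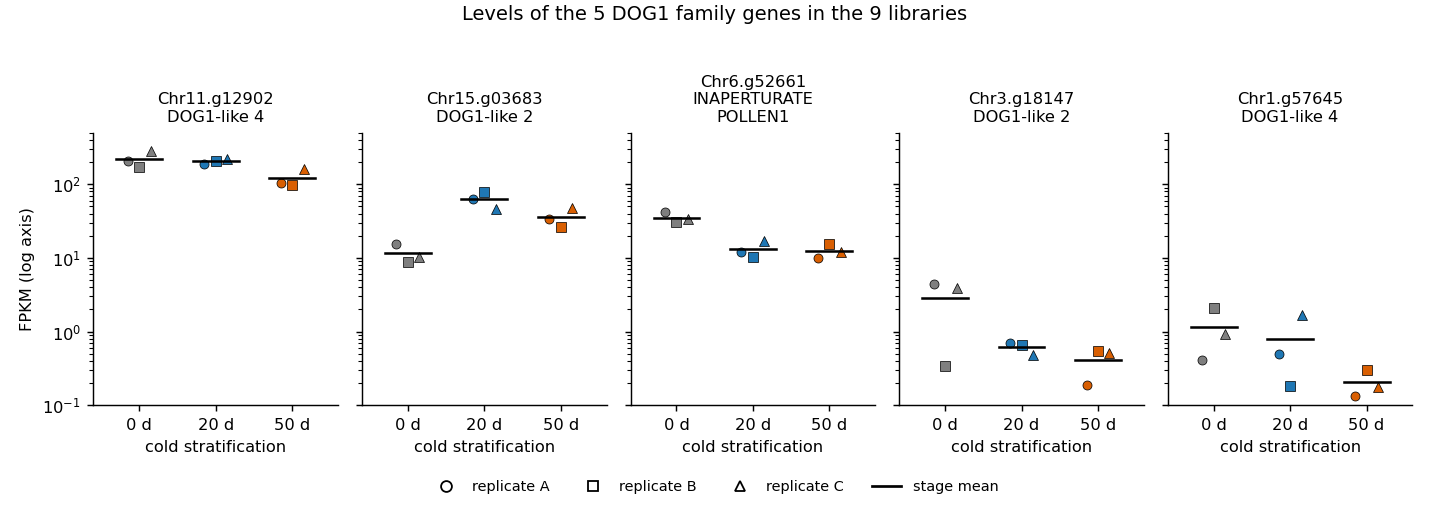
FPKM of each family gene on a log axis, with 1 point per library, coloured by stage (0, 20 and 50 d) and shaped by replicate, and a bar at the stage mean. Chr15.g03683 sits higher at 20 d and 50 d than at 0 d in every library, Chr6.g52661 sits lower, and the pair on the right stays under 5 FPKM.

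A pair of libraries departed from the others of their stages. Across 28339 tested genes the correlation of the log2 normalised counts was 0.954 to 0.967 within 0 d. At 20 d it was 0.976 between replicates A and C, but 0.883 and 0.892 for replicate B with these. At 50 d it was 0.962 between replicates A and B, but 0.900 and 0.924 for replicate C with these. The departures of 20 d replicate B and of 50 d replicate C from their stage means correlated at 0.72, so results of the members are also given without both, a fit added once this had been seen. Lists of marker genes moved with the stages as well. The summed FPKM of 14 seed storage and oil genes, all of them detected, was 14494 to 27329 at 0 d, 13812 to 18561 at 20 d and 2138 to 5740 at 50 d. That of 33 chlorophyll a-b binding proteins, of which 4 were at 0 in every library, was 37.2 to 52.1 at 0 d, 43.7 to 64.7 at 20 d and 158 to 263 at 50 d. The sum of 16 seed maturation genes was 1746 to 2814 at 0 d, 1162 to 1404 at 20 d and 671 to 1216 at 50 d. That of 10 seed coat pigment genes was 55.7 to 76.7 at 0 d, 23.5 to 34.5 at 20 d and 76.1 to 126 at 50 d. That of 30 genes of dividing cells, of which 1 was at 0 in every library, was 427 to 660 at 0 d, 230 to 481 at 20 d and 157 to 373 at 50 d, and in the later stages it was highest in the pair of libraries that stood apart, 20 d replicate B and 50 d replicate C. The part of these cells in the results of the members was not tested. In whole seeds, fewer cells of a type and less RNA per cell cannot be told apart.

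The first question was which members differ between the stages. A gene was called where edgeR's quasi-likelihood test gave an adjusted p no higher than 0.01, the log2 fold change was 1 or more in size, and 1 or more of the compared stages had a mean of 1 FPKM or above. Of the 5 members 3 had enough counts to be tested. At 20 d against 0 d, 1 member rose and 1 fell, while 12.4% of all tested genes were called (7.88% higher and 4.52% lower). At 50 d against 0 d the same pair of members was called, in the same directions, beside 26.6% of all tested genes (15.6% higher and 11% lower). At 50 d against 20 d no member was called, beside 1.66% of all tested genes, although 19% of these had an unadjusted p under 0.05. In that comparison Chr11.g12902 and Chr15.g03683 also had an unadjusted p under 0.05 (0.0232 and 0.0295), while DESeq2 called 0 members, beside 5.08% of the genes it tested. The 20 d and 50 d comparisons share the 0 d libraries, so they are not independent of each other.

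The median log2 fold change of the 3 tested members was -0.02 at 20 d against 0 d, -0.80 at 50 d against 20 d and -0.82 at 50 d against 0 d. Over all tested genes it was 0.15 at 20 d against 0 d, -0.06 at 50 d against 20 d and 0.16 at 50 d against 0 d. The members went in different directions, so these medians describe none of them well.

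Chr15.g03683, the DOG1-like 2 gene of chromosome 15, rose. Its level was 15.6, 8.93 and 10.4 FPKM in 0 d seeds, 62.8, 79.2 and 45.6 FPKM in 20 d seeds, and 34.0, 26.2 and 46.9 FPKM in 50 d seeds. Every library of 20 d and of 50 d stood above every 0 d library, while 20 d and 50 d overlapped through 20 d replicate C and 50 d replicate C. Libraries all above those of 0 d were found for 20.8% of the tested genes at 20 d and for 29.5% at 50 d. The stage means were 11.6 ± 3.51, 62.5 ± 16.8 and 35.7 ± 10.5 FPKM at 0, 20 and 50 d (SD, n = 3 each).

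At 20 d the log2 fold change of Chr15.g03683 over 0 d was 2.51 (SE 0.36, 95% interval 1.74 to 3.29), a 5.71-fold higher level, with edgeR's adjusted p = 0.00082. This call held in all 9 fits that each left out 1 library, with values of 2.21 to 2.71. At 50 d the log2 fold change over 0 d was 1.68 (SE 0.35, 95% interval 0.92 to 2.44), a 3.20-fold higher level, with edgeR's adjusted p = 0.0025. That call was lost with 0 d replicate B left out (edgeR, adjusted p = 0.015) and with 0 d replicate C left out (edgeR, adjusted p = 0.0169). Those fits called 18% and 16.7% of all tested genes, against 26.6% with all libraries. The log2 fold changes were between 1.42 and 1.87 over the 9 fits. Without both 20 d replicate B and 50 d replicate C they were 2.21 at 20 d and 1.42 at 50 d. Both passed the limits, beside 33.9% and 41.6% of all tested genes called.

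The study names Chr15.g03683 as a homolog of DOG1 and describes a quick rise to 20 d, then a decrease to 50 d. It reports no clear link of these levels to germination. Here the fitted change from 20 d to 50 d was also negative, but no fit called it, so a peak at 20 d was not shown at these limits. The log2 fold change of Chr15.g03683 at 50 d over 20 d was -0.83 (SE 0.34, 95% interval -1.57 to -0.10), which was not called (edgeR, adjusted p = 0.198). Against the mean of 0 d and 50 d, the 20 d level differed by 1.67 on the log2 scale (SE 0.28, 95% interval 1.06 to 2.29), just outside the limit on the adjusted p (edgeR, 0.0137). That contrast can also be passed by a gene that rises and stays high, so it does not decide on a peak. In it 0.363% of all tested genes were called, and 3.37% of those tested by DESeq2. Chr15.g03683 passed the limits there with DESeq2 (adjusted p = 7.31e-05), with no low-count filter and with the trend in gene length removed. It also passed with 20 d replicate B left out, and with both 20 d replicate B and 50 d replicate C left out (edgeR, adjusted p = 0.000923).

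Chr6.g52661, the gene matched to INAPERTURATE POLLEN1, fell. It had 41.7, 30.5 and 33.3 FPKM in 0 d seeds, 11.9, 10.2 and 17.1 FPKM in 20 d seeds, and 9.83, 15.6 and 12.1 FPKM in 50 d seeds. Each library of the later stages was below each 0 d library, and 20 d and 50 d overlapped. Libraries all below those of 0 d were found for 21.3% of the tested genes at 20 d and for 26.2% at 50 d. The log2 fold change was -1.35 at 20 d over 0 d (SE 0.31, 95% interval -2.03 to -0.67, edgeR adjusted p = 0.00867) and -1.43 at 50 d over 0 d (SE 0.31, 95% interval -2.11 to -0.75, edgeR adjusted p = 0.00344). Its level at 0 d was therefore 2.54 times that at 20 d and 2.69 times that at 50 d. Between 50 d and 20 d the difference was -0.08 (95% interval -0.75 to 0.59).

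The call of Chr6.g52661 at 20 d was close to the limit. It was lost without any one of the 0 d replicates, of 20 d replicates A and C, or of 50 d replicates A and B. Adjusted p-values of edgeR were then up to 0.046 and log2 fold changes between -1.57 and -1.27. These fits called 4.21 to 10.3% of all tested genes, against 12.4% with all libraries. The call held when 20 d replicate B, 50 d replicate C, or both were left out (with both out, edgeR, adjusted p = 0.00175). Those fits called 23.7%, 13.7% and 33.9% of all tested genes. At 50 d the call was lost without 0 d replicate A (edgeR, adjusted p = 0.0131) and without 50 d replicate A (edgeR, adjusted p = 0.0219). Each of these called 17.2% of all tested genes, against 26.6% with all libraries.

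**Figure D2:**
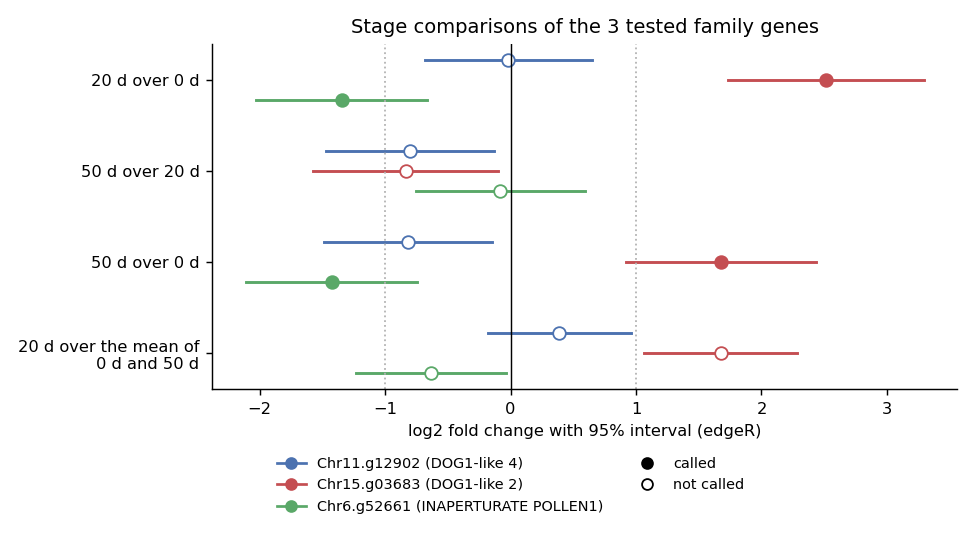
Log2 fold changes of the 3 tested members with 95% intervals from edgeR, for each pair of stages and for 20 d over the mean of 0 d and 50 d. Filled points were called and open points were not, and dotted lines mark the limit of 1 in either direction. Chr15.g03683 lies to the right and Chr6.g52661 to the left at 20 d and 50 d over 0 d, while the intervals of Chr11.g12902 stay within -1.49 and 0.96.

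Chr11.g12902, the abundant DOG1-like 4 gene, was not called between any of the stages with all libraries in the fit. Its level was 206, 169 and 285 FPKM in 0 d seeds, 186, 208 and 222 FPKM in 20 d seeds, and 104, 96.9 and 159 FPKM in 50 d seeds. The 20 d libraries lay within the range of the 0 d libraries. All 50 d libraries lay below all others, which also held for 26.2% of the tested genes at 50 d against 0 d and for 10.8% at 50 d against 20 d. The stage means were 220 ± 58.9, 205 ± 18.2 and 120.0 ± 34.0 FPKM at 0, 20 and 50 d (SD, n = 3 each).

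The log2 fold change of Chr11.g12902 at 20 d over 0 d was -0.02 (SE 0.30, 95% interval -0.68 to 0.65). At 50 d over 0 d it was -0.82 (SE 0.31, 95% interval -1.49 to -0.15, edgeR adjusted p = 0.0479), which did not pass the limits, and at 50 d over 20 d it was -0.80 (SE 0.31, 95% interval -1.47 to -0.13, edgeR adjusted p = 0.173). The 50 d value over 0 d depended on the libraries. It was -0.66 without 0 d replicate C (edgeR, adjusted p = 0.131) and -1.08 without 50 d replicate C (edgeR, adjusted p = 0.02), and without both 20 d replicate B and 50 d replicate C it was -1.09 and passed the limits (edgeR, adjusted p = 0.00297). In that fit 41.6% of all tested genes were called at 50 d against 0 d.

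At 0 d and at 50 d the library with the highest level of Chr11.g12902, replicate C, was also the one with the most storage and oil RNA. At 0 d replicate C had 285 FPKM of the gene and a storage and oil sum of 27329 FPKM, against 169 FPKM and 14494 FPKM in replicate B, the lowest in both. At 50 d replicate C had 159 FPKM of the gene and a sum of 5740 FPKM, against 96.9 FPKM and 2138 FPKM in replicate B, again the lowest in both. At 20 d the order differed, since replicate B had the highest sum and replicate C the highest level of the gene. The part of the storage tissue in the level of Chr11.g12902 was not tested.

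The low pair of members was left out of the test by the filter on low counts. Chr3.g18147, the second DOG1-like 2 gene, had 30, 3 and 29 counts in 0 d replicates A, B and C, then 6, 5 and 4 counts at 20 d and 2, 5 and 4 counts at 50 d. Replicate B of 0 d was as low as the later stages. The sums per stage were 62 counts at 0 d (exact Poisson 95% interval 47.5 to 79.5), 15 at 20 d (8.40 to 24.7) and 11 at 50 d (5.49 to 19.7), intervals that cover counting error only. Without the filter, its log2 fold change at 50 d over 0 d was -2.68 (SE 0.88) and missed the limit (edgeR, adjusted p = 0.0205), as it did with DESeq2 (adjusted p = 0.0106). With 0 d replicate B, its low 0 d library, left out the gene passed the filter. At 50 d over 0 d it was then called with a log2 fold change of -3.23 (edgeR, adjusted p = 0.00516), beside 18% of all tested genes. It also passed the filter without any one of the 20 d or 50 d replicates. None of those fits called it at 50 d over 0 d (edgeR, adjusted p from 0.0188 to 0.0933).

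Chr1.g57645, the short DOG1-like 4 gene, had 2, 13 and 5 counts at 0 d, 3, 1 and 10 counts at 20 d, and 1, 2 and 1 counts at 50 d. These are 20, 14 and 4 counts per stage. In FPKM the gene had 0.135, 0.306 and 0.180 in 50 d seeds, against 0.416, 2.08 and 0.941 in 0 d seeds. All 50 d libraries thus lay below all 0 d libraries in FPKM, as they did for 26.2% of the tested genes, which do not include this gene. In counts 50 d replicate B and 0 d replicate A were equal at 2, so their order in FPKM rests on the library sizes. The 20 d libraries overlapped with both of the other stages. Its log2 fold change at 50 d over 0 d without the filter was -2.32 (SE 1.17, edgeR adjusted p = 0.139). The fitted change of this gene missed the limit at this depth.

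The make-up of the family differed between the stages. The summed FPKM of the 5 genes was 268, 211 and 333 at 0 d, 262, 298 and 287 at 20 d, and 148, 140 and 219 at 50 d. The sums of 0 d and 20 d overlapped, and only 50 d replicate C reached into the range of the 0 d libraries. Chr15.g03683 made up 3.11 to 5.81% of the sum at 0 d, 15.9 to 26.6% at 20 d and 18.8 to 23.0% at 50 d. Chr11.g12902 was 13.2 to 27.5 times as high as Chr15.g03683 at 0 d, 2.63 to 4.86 times at 20 d and 3.06 to 3.70 times at 50 d.

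The order of the next pair of genes turned over. Chr6.g52661 stood above Chr15.g03683 in all 0 d libraries, where the FPKM ratio of Chr15.g03683 to Chr6.g52661 was 0.374, 0.292 and 0.311. At 20 d this ratio was 5.28, 7.79 and 2.67, and at 50 d it was 3.46, 1.68 and 3.88. Chr3.g18147 and Chr1.g57645 overlapped at every stage, so their order was not set beyond their spread.

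**Figure D3:**
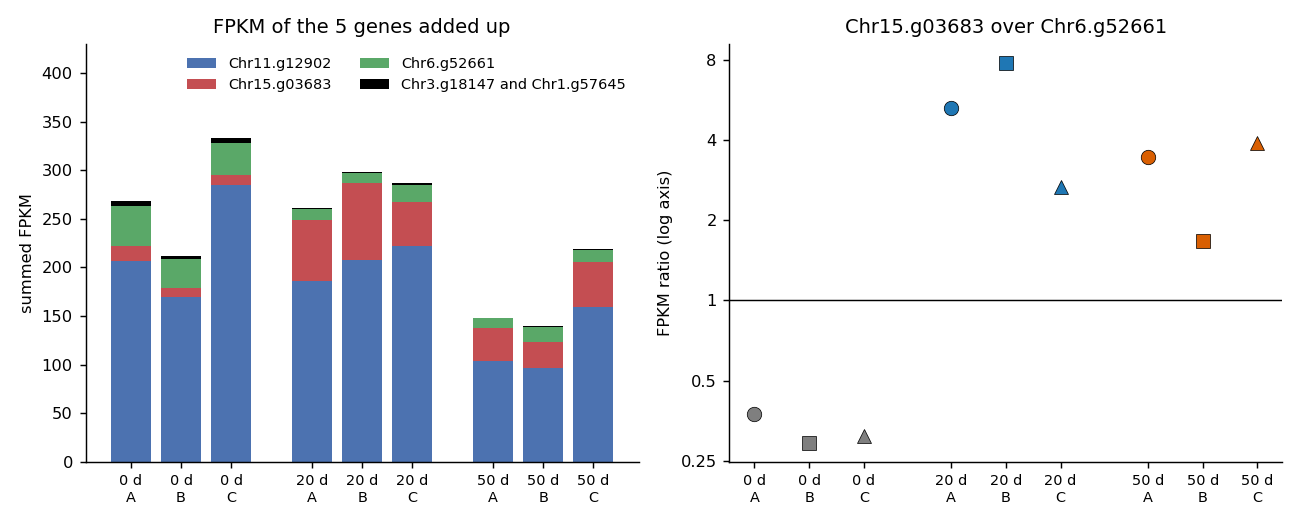
Left, FPKM of the 5 members stacked for each of the 9 libraries; right, the FPKM ratio of Chr15.g03683 to Chr6.g52661 in each library on a log axis, with a line at 1. The stacks of 50 d replicates A and B, 148 and 140 FPKM, are the lowest, and the ratio is under 1 at 0 d and above 1 at 20 d and 50 d in every library.

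The genes most like a member were taken from 24646 tested genes with a mean FPKM of at least 1, by Pearson correlation of the log2 normalised counts over the 9 libraries, which share their stages and so any gene that follows them. For Chr11.g12902 they were Chr15.g04560, which has no match (r = 0.969), Chr11.g12976, matched to the zinc finger protein B-box 22 (r = 0.962), and Chr11.g13315, matched to a Translocator protein homolog (r = 0.949). The B-box gene averaged 47.9, 47.8 and 27.7 FPKM at 0, 20 and 50 d. For Chr15.g03683 they were Chr17.g27595, matched to the 60S ribosomal protein L11 (r = 0.984), Chr9.g47096, matched to a SAMHD1 homolog (r = 0.980), and Chr2.g41865, matched to the FCS-type zinc finger protein MARD1 (r = 0.980). Chr2.g41865 averaged 5.91, 44.97 and 32.1 FPKM at 0, 20 and 50 d.

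The group A phosphatases 2C, which include the DOG1 targets AHG1 and AHG3 of Arabidopsis, were read next. Of 13 listed genes 9 were tested. Only 6 of the 13, of which 3 were tested, were matched to protein phosphatase 2C 37, the AHG3 of Arabidopsis. With edgeR none was called at 20 d against 0 d, beside 12.4% of all tested genes. There 2 had an unadjusted p under 0.05 and DESeq2 called 0. At 50 d against 20 d none was called, beside 1.66%, while 1 had such a p and DESeq2 called 1. At 50 d against 0 d none was called higher and 1 lower, beside 26.6%, and DESeq2 called 2. Of all genes it tested, DESeq2 called 19.4%, 5.08% and 30% in these comparisons, in this order. Single libraries left out gave edgeR shares of 4.21 to 23.7% at 20 d and 16.6 to 34% at 50 d against 0 d, which also apply to the lists below. None of the 13 listed genes was matched to protein phosphatase 2C 75, the AHG1 of Arabidopsis. The list took only names that begin with protein phosphatase 2C, so a match under another form of the name would have been missed. Protein phosphatase 2C 37 is AHG3, and Chr7.g32491, matched to it, was the highest of the list with 116.5 ± 66.5, 99.0 ± 18.7 and 93.6 ± 21.6 FPKM at 0, 20 and 50 d (SD, n = 3 each). Its log2 fold change at 50 d over 0 d was -0.25 (SE 0.39). The gene that fell was Chr11.g10589, also matched to 2C 37, with a log2 fold change of -2.99 (SE 0.63, edgeR adjusted p = 0.00272). It had 3.59, 0.752 and 1.09 FPKM at 50 d, against 10.2, 10.8 and 24.8 FPKM at 0 d. The call was lost without 0 d replicate C (edgeR, adjusted p = 0.0144) and without 50 d replicate B (edgeR, adjusted p = 0.0128). Chr8.g54174, matched to 2C 16, had 15.9, 14.4 and 12.5 FPKM at 50 d, against 4.75, 7.65 and 6.51 FPKM at 0 d. Its log2 fold change of 1.24 (SE 0.34) narrowly missed the limit (edgeR, adjusted p = 0.0111). The study reports a rise of this gene by RNA-seq and qRT-PCR.

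The ABA receptors, which hold these phosphatases off once ABA is bound, were all measured, with 12 of 12 tested. With edgeR 1 rose and none fell at 20 d against 0 d, beside 12.4% of all tested genes called, and 3 had an unadjusted p under 0.05. DESeq2 called 3 there, among them Chr1.g57831 (PYL9) as lower (log2 fold change -1.16, DESeq2 adjusted p = 0.00221; edgeR -1.07, adjusted p = 0.0215). At 50 d against 0 d 2 rose and 2 fell, beside 26.6% of all tested genes called. At 50 d against 20 d edgeR called none, beside 1.66%, with an unadjusted p under 0.05 for 3 and 1 called by DESeq2. Chr8.g53982 (PYL2) rose by 20 d with a log2 fold change of 2.51 (SE 0.48, edgeR adjusted p = 0.00343), a call that was lost without any one of the 0 d replicates or without 20 d replicate C. By 50 d its log2 fold change over 0 d was 3.62 (SE 0.49), and Chr1.g57101 (PYL4) reached 2.31 (SE 0.39). Chr16.g28489 (PYL1) fell by 2.49 on the log2 scale by 50 d (SE 0.43). These 50 d calls held in all 9 fits with 1 library left out. Chr1.g57831 (PYL9), the most abundant receptor gene, had 38.4, 41.3 and 59.3 FPKM at 50 d, against 94.1, 114 and 125 FPKM at 0 d. Its log2 fold change of -1.21 (SE 0.30, edgeR adjusted p = 0.00778) was called, but no longer without 0 d replicates B or C, 20 d replicates A or C, or 50 d replicates A or B.

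Of 6 SnRK2 kinases, which the phosphatases keep inactive, 5 were tested and edgeR and DESeq2 called none in any comparison. An unadjusted p under 0.05 from edgeR was found for 1 of them at 50 d against 0 d and for 0 at 20 d against 0 d and at 50 d against 20 d. Of all tested genes edgeR called 26.6%, 12.4% and 1.66% in these comparisons. Chr2.g42547 (SRK2I), the highest, averaged 85.9, 83.5 and 86.7 FPKM at 0, 20 and 50 d, and its log2 fold change at 50 d over 0 d was 0.07 (SE 0.31).

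Transcription factors of the ABI3, ABI4, ABI5 and FUS3 type, some of them known from the seed's ABA response, were listed together with ABI5-like proteins. Of these 18 genes 13 were tested. At 20 d against 0 d 1 rose, beside 12.4% of all tested genes called, and DESeq2 called 2, beside 19.4% of the genes it tested. At 50 d against 0 d 3 rose and 1 fell, beside 26.6%, and DESeq2 called 7, beside 30%. Both tools called 0 at 50 d against 20 d, beside 1.66% and 5.08%, with an unadjusted p under 0.05 from edgeR for 4. Chr14.g47933 (ABI5) rose by 20 d with a log2 fold change of 2.23 (SE 0.46, edgeR adjusted p = 0.00489). It had 55.03, 20.1 and 55.8 FPKM at 20 d, against 5.65, 9.87 and 13.83 FPKM at 0 d, so that 20 d replicate B was the low one, and the call was lost without any one of the 0 d replicates or of 20 d replicates A and C. By 50 d the genes that rose were Chr15.g04194 (ABI5-like protein 5, 2.85, SE 0.70), Chr8.g54486 (ABI5-like protein 5, 3.83, SE 0.83) and Chr5.g08464 (ABI5-like protein 7, 2.86, SE 0.66), the values being log2 fold changes over 0 d. The gene that fell, Chr17.g24630 (FUS3), had 0, 4 and 0 counts at 50 d, against 27, 19 and 20 counts at 0 d. The call of Chr5.g08464 was lost without 0 d replicates A or C or 50 d replicates A or B. Those of Chr15.g04194 and Chr8.g54486 were lost without any one of the 0 d replicates or of 50 d replicates A and B, and that of Chr17.g24630 without any one of the 0 d replicates or of 50 d replicates A and C. Chr1.g57127 (ABI4), the most abundant of the list, averaged 51.9 ± 3.47 FPKM at 50 d and 110 ± 28.5 FPKM at 0 d (SD, n = 3 each), with a log2 fold change of -1.02 that narrowly missed the limit (edgeR, adjusted p = 0.0129). The study reports this gene as falling during stratification and had it among the genes measured by qRT-PCR.

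Of 10 ABA 8'-hydroxylases, the enzymes that start the breakdown of ABA, 5 were tested. With edgeR 0 of them were called at 50 d against 20 d, beside 1.66% of all tested genes. There 2 had an unadjusted p under 0.05 and DESeq2 called 1. Chr16.g28238 (8'-hydroxylase 1) rose by 20 d, the 1 edgeR call at 20 d against 0 d, with a log2 fold change of 1.72 (SE 0.35, edgeR adjusted p = 0.00451). In that comparison edgeR called 12.4% of all tested genes. DESeq2 called 3 of the list there, and 4 had an unadjusted p under 0.05 from edgeR. Chr15.g02290 (8'-hydroxylase 4), the most abundant, fell by 50 d, with a log2 fold change of -1.38 (SE 0.37, edgeR adjusted p = 0.00982). It was the 1 call at 50 d against 0 d, beside 26.6% of all tested genes. The first call was lost without any one of the 0 d replicates or of 20 d replicates A and C. The second was lost without any one library other than 20 d replicate B and 50 d replicate C.

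**Figure D4:**
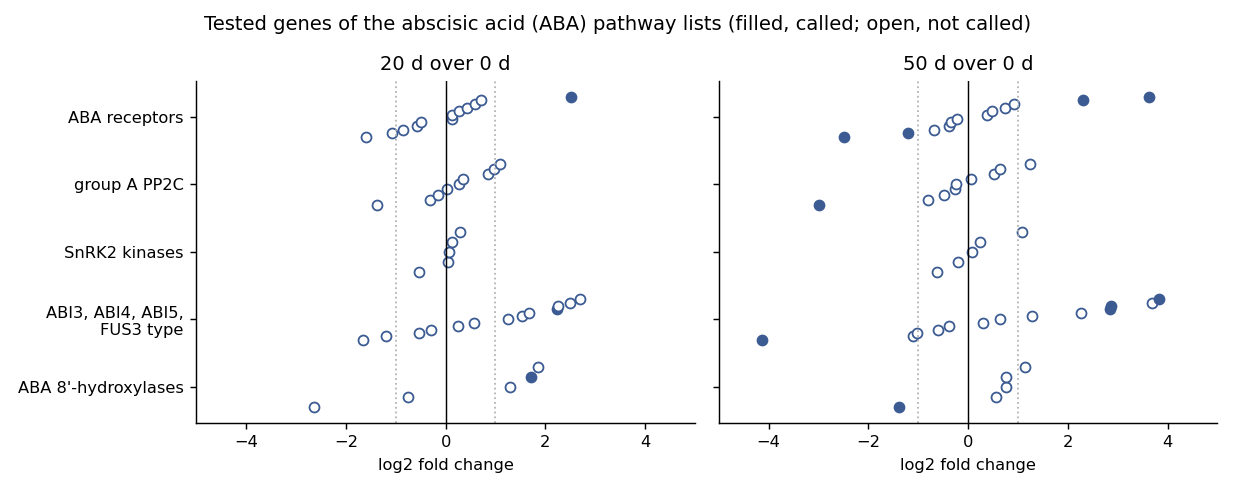
Log2 fold changes of the tested genes of each ABA pathway list, left at 20 d over 0 d and right at 50 d over 0 d, with filled points called and open points not called. Within a list the genes are spread over the height by their value, and dotted lines mark the limit of 1 in either direction. None of the 5 SnRK2 kinases and 1 of the 9 phosphatases was called at 50 d, beside 26.6% of all tested genes.

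The 18 genes that share the domain but were matched to TGA-type factors served as the nearest relatives. Of these 16 were tested. At 20 d against 0 d 2 rose and 3 fell, beside 12.4% of all tested genes called, and DESeq2 called 8, beside 19.4% of the genes it tested. By 50 d 3 rose and 5 fell against 0 d, beside 26.6%, and DESeq2 called 10, beside 30% of the genes it tested. Chr14.g48805, matched to TGA-2.1 and the most abundant, had a log2 fold change at 50 d over 0 d of -0.63 (SE 0.31) and was not called.

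The relatives hold 14 genes with an annotated bZIP domain and 4 without one, which like the family carry no annotated DNA-binding bZIP region. This split was made after the values were seen. Of the 4 genes 3 were tested, and all 3 fell by 50 d, beside 11% of all tested genes called lower. Chr11.g10000, matched to TGA4, had 13.5, 12.1 and 17.5 FPKM at 20 d and 7.86, 4.90 and 4.65 FPKM at 50 d, against 47.4, 107 and 147 FPKM at 0 d. Its log2 fold change over 0 d was -2.73 at 20 d (SE 0.43, edgeR adjusted p = 0.00135) and -4.05 at 50 d (SE 0.46, edgeR adjusted p = 7.21e-05). Chr12.g35972, matched to TGA2.3, followed with -2.64 at 20 d (SE 0.37) and -3.39 at 50 d (SE 0.38).

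Chr4.g40061, matched to TGA4, had 7.90, 8.05 and 9.15 FPKM at 50 d, against 29.1, 49.0 and 71.6 FPKM at 0 d. It fell with -2.52 at 50 d (SE 0.38) and stood at -1.52 at 20 d, outside the limit (edgeR, adjusted p = 0.0105). The calls of these 3 genes held in all 9 fits with 1 library left out. Among the family itself Chr6.g52661 fell too and was called at both stages, with log2 fold changes of -1.35 and -1.43, Chr11.g12902 had fitted values nearer to 0 than each of them, and Chr15.g03683 had the opposite sign. Chr3.g18061, the remaining gene, had 22 counts in all libraries together.

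**Figure D5:**
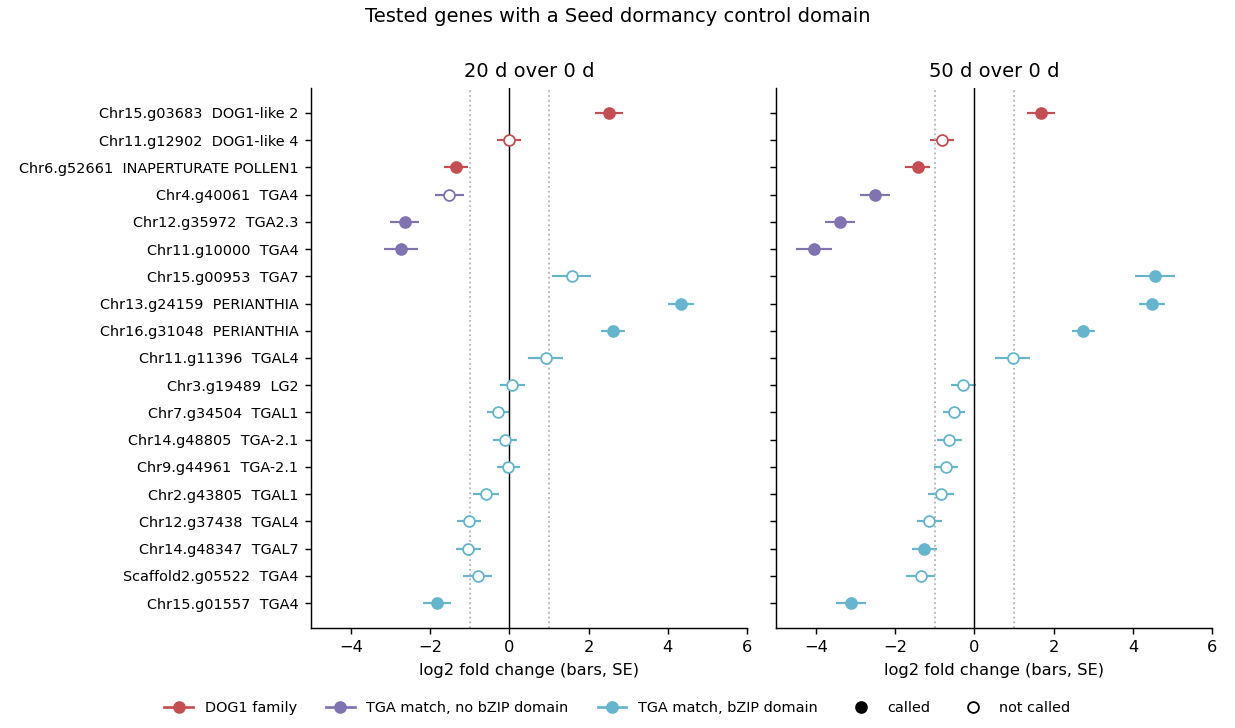
Log2 fold changes, with SE bars, of the 19 tested genes with a Seed dormancy control domain, left at 20 d over 0 d and right at 50 d over 0 d, coloured by family, TGA matches without a bZIP domain and TGA matches with one. Filled points were called. The 3 TGA matches without a bZIP domain lie to the left of -1 in both panels, while the family and the other TGA matches lie on both sides of 0.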

How the data were processed

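RNA-seq libraries of 9 callery pear seed samples, 3 per stage, were grouped by the labels' stage. Whole-number counts and FPKM per gene were used as the authors deposited them. The library sizes implied by the FPKM were 0.888 (0 d replicate A) to 1.17 (50 d replicate A) times the counted reads. The FPKM therefore hold a scaling beyond the read totals. Per the labels and the study's methods, reads were aligned with HISAT2 to the Pyrus betuleafolia genome. The counting tool, the treatment of reads that map to several genes, and all versions were not given in the sources used here; similar copies can share reads. The deposited table also holds log2 fold changes and p-values of the authors' own comparisons, which were not used.

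Counts were fitted with edgeR 4.0.16 in R 4.3.3 (TMM, filterByExpr by stage, quasi-likelihood test, all 9 libraries, stage as the only factor), and p-values were adjusted by Benjamini-Hochberg over 28339 genes within each of 4 contrasts. Intervals of fold changes use the moderated degrees of freedom. Alternatives were DESeq2 1.42.0, RLE factors, no low-count filter, other FPKM and p limits, glmTreat, fits of 2 stages, the replicate letter as a block, limma 3.58.1 (limma-trend) on log2(FPKM + 1) and log2(FPKM + 0.1), removal of the length trend (loess, span 0.5), and each library left out. Leaving out 20 d replicate B with 50 d replicate C was added later. The fits were tested on simulated data. Summaries used Python 3.11.15, numpy 2.4.6, pandas 2.3.3, scipy 1.17.1 and matplotlib 3.10.9.

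The members and lists were chosen with earlier results of these data known. Named were all members, in each list the gene with the highest mean FPKM and all called genes where at most 4 were called, and the 3 genes most like Chr11.g12902 and Chr15.g03683. Chr8.g54174 was named in addition, after its values were seen, because the study reports it. The table gives gene names as Swissprot matches. The deposited comparisons code the first stage as DR2; stages follow the labels.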

Additional observations from a re-analysis of the deposited data

How the results depend on the processing

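The number of members called at 20 d against 0 d, 2, became 1 with glmTreat, with only the 2 stages in the fit and with the replicate block. It ran from 1 to 2 with single libraries left out. The share of all tested genes called went from 12.4% to 3.34%, 11.4% and 4.56% in the first 3 of these fits. With single libraries left out that share was 4.21 to 23.7%. At 50 d against 0 d, 2 became 0 with glmTreat and 0 with the replicate block, and ran from 1 to 2 with single libraries left out; the 2 without 0 d replicate B share only 1 with the main pair, since Chr3.g18147 came in. For 20 d against the mean of 0 d and 50 d, 0 became 1 with DESeq2, without the low-count filter and with an adjusted p of at most 0.05. It also became 1 with the length trend removed and without both 20 d replicate B and 50 d replicate C, and ran from 0 to 1 with single libraries left out. The share of all tested genes called there was 0.363% in the main fit and 1.26 to 8.17% in the fits named. With single libraries left out that share was 0.0034 to 2.43%. At 50 d against 20 d the number of members called was 0 throughout, beside 0 to 5.23% of all tested genes.

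The log2 fold change of Chr11.g12902 at 20 d over 0 d turned positive without the low-count filter (0.0134), with the replicate block (0.0146) and with the length trend removed (0.22), and ran from -0.18 to 0.10 with single libraries left out. That of Chr6.g52661 at 50 d over 20 d ran from -0.29 to 0.15. Refits were counted for the tested members and for named genes of the lists, nearly all of them called in the main fit. Most of the named genes that were not called, such as Chr8.g54174, were not among them. Of these refits 742 kept their direction and side of the limits, 109 lost a call, 16 gained one and 8 turned sign. With genes picked for being called, more lost than gained calls can come from the choice alone. With the length trend removed the median log2 fold change of all tested genes was -0.06 at 20 d and -0.16 at 50 d over 0 d. The replicate letters did not pair the libraries: same-letter deviations correlated between -0.56 and 0.55, above 0.1 in 2 of 9 pairs. With 3 libraries a stage, uncalled members are not shown to be unchanged, and the low pair is limited by its counts.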

Other observations

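Among the relatives with an annotated bZIP domain, the pair matched to PERIANTHIA, a TGA-type factor known from Arabidopsis flowers, rose. Their fitted log2 fold changes over 0 d were larger than those of any tested member of the family. At 20 d, however, the value of Chr16.g31048 (2.62, SE 0.30) was close to that of Chr15.g03683 (2.51, SE 0.36). Chr13.g24159 had 80.1, 74.9 and 89.7 FPKM at 20 d and 85.7, 83.8 and 107.8 FPKM at 50 d, against 3.10, 4.51 and 5.26 FPKM at 0 d. Its log2 fold change over 0 d was 4.32 at 20 d (SE 0.33, edgeR adjusted p = 5.54e-05) and 4.48 at 50 d (SE 0.33, edgeR adjusted p = 1.16e-05). Chr16.g31048, the other gene of the pair, which was chosen after its values were seen, had 2.62 at 20 d (SE 0.30) and 2.75 at 50 d (SE 0.30). These 4 calls held in all 9 fits with 1 library left out.

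Chr13.g24159 was also the relative called at 20 d against the mean of 0 d and 50 d (2.08, SE 0.24, edgeR adjusted p = 0.00288), a call that held in 3 of the 9 fits, those without 20 d replicate B, 50 d replicate A or 50 d replicate C. Chr15.g00953, matched to TGA7, was the relative called at 50 d against 20 d. It had 4.66, 6.46 and 7.996 FPKM at 50 d, against 0.740, 1.13 and 0.489 FPKM at 20 d, with a log2 fold change of 2.99 (SE 0.45, edgeR adjusted p = 0.00401) that was not called without 20 d replicates A or C or without 50 d replicate B. Chr15.g01557, matched to TGA4 and chosen after its values were seen, fell, with log2 fold changes over 0 d of -1.82 at 20 d (SE 0.36) and -3.12 at 50 d (SE 0.38), of which the 20 d call was lost without any one of the 0 d replicates or of 20 d replicates A and C.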
